A study of Homo sapiens with 12 samples.

Results

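The replication-dependent histone genes are the genes that supply most of the histone protein packed onto newly made DNA. They were taken as every row of the count table whose gene symbol belongs to the H1-1 to H1-6, H2AC, H2BC, H3C or H4C series, which gave 69 of the 50006 rows: 6 of the linker histone H1, 17 of H2A, 18 of H2B, 13 of H3 and 15 of H4. The cells were TK6, human B lymphoblasts grown in suspension that serve in genotoxicity tests. All were incubated for 24 h with 3-methylcholanthrene, a polycyclic aromatic hydrocarbon carcinogen, at 0 µg/mL (control), 0.0004 µg/mL (low), 0.04 µg/mL (medium) or 4 µg/mL (high), with 3 libraries per group. RNA was captured by its poly(A) tail before sequencing, so every count below is of RNA that passed that capture. The labels do not say that the 3 libraries of a group are from separate cultures. The p-values below therefore weigh differences against a spread between libraries that may be technical only.

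Messenger RNAs of these genes are made in S phase, carry no introns as a rule, and end at a conserved stem-loop in place of a poly(A) tail. The stem-loop is bound by SLBP, the stem-loop binding protein, and the end is cut by a machinery built around the U7 small nuclear RNA, while NPAT switches on transcription of the clusters. Some histone genes also give longer, polyadenylated or spliced transcripts that run past the stem-loop. In the nucleosome a tetramer of H3 and H4 joins dimers of H2A and H2B, and H1 sits on the linker DNA.

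The stem-loop is shown first because it marks the transcript end that poly(A) capture does not bind. It was searched as GG, any 3 bases, TTTT, any base, A, any 3 bases and CC, in the transcripts of GENCODE release 29 (GRCh38), sense strand only. Of the 69 genes 65 matched a GENCODE gene, and the models of 33 run at least 40 bases past the stop codon. Of these 33, 28 hold the motif past the stop codon: 5 of 5 for H2A, 11 of 12 for H2B, 4 of 5 for H3, 8 of 9 for H4 and 0 of 2 for H1. Anywhere in a transcript, 708 of 58676 GENCODE genes (1.21%) hold it. The 28 genes have 5 spellings, printed as DNA with the stem in capitals and the loop in lower case.
H2BC9, H2BC21, H2AC6 and 12 others: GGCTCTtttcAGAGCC
H2BC4, H2BC5, H2BC7 and H3C8: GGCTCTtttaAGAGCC
H4C2, H4C5, H4C8, H4C11 and H4C16: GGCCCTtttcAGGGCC
H4C9, H4C14 and H4C15: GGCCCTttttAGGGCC
H2AC11: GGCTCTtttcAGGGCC
The first spelling is shared by H2A, H2B and H3 genes, and both spellings with a GGCCCT stem belong to H4. In H2BC9 the stem-loop lies at chr6:26252055-26252070 (GRCh38, plus strand), 24 bases past the stop codon. In H4C5 it lies at chr6:26205001-26205016 (plus strand). Of the 28 genes, 22 have a GENCODE model that goes on for at least 100 bases past the stem-loop, up to 1917 bases in H2BC26. H4C3, the member with the most counts, has no such sequence in its GENCODE models, and no motif was looked for outside these models.

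Promoters are shown for what the classes share upstream of the transcript. The RefSeq promoter table (GRCh38.p14, 250 bases before to 50 after a start site) held 64 of the 69 genes. The octamer ATTTGCAT, the site bound by POU2F1, was found on either strand in 14 of 18 H2B genes and 11 of 16 H2A genes, in 1 of 11 H3 genes and in none of 6 H1 or 13 H4 genes. Among 27305 genes with such a window, 2.19% hold it. These are counts of genes and not of separate sites. Facing H2A and H2B genes can hold the same octamer, as H2AC6 and H2BC4 do. The H3 gene is H3C4, and its window at chr6:26199369-26199428 is the same as that of H2AC7. CCAAT and TATAAA were also searched on either strand and anywhere in the window. CCAAT stood in every H1, H2A, H2B and H3 window and in 3 of 13 H4 windows, against 39.7% of all genes. TATAAA stood in 9 of 11 H3, 12 of 16 H2A, 12 of 18 H2B, 7 of 13 H4 and 3 of 6 H1 windows. Of all genes 14% hold it. Windows of 60 bases around the octamer (capitals) are given for H2BC9, H2BC12 and H2BC21, on the strand of the gene.
H2BC9, chr6:26251549-26251608, plus strand: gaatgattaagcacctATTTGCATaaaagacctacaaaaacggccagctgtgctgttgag
H2BC12, chr6:27146861-27146920, minus strand: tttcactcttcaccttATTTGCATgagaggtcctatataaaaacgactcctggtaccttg
H2BC21, chr1:149886685-149886744, minus strand: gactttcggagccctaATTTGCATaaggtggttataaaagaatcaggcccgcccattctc
In H2BC9 the octamer begins 49 bases before the start site, as it does in H2BC12, and the octamer of H2BC21 lies between that gene and H2AC20, which is transcribed away from it. A match is a run of letters, and no binding was measured here.

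These genes were detected at low counts. Together they held 17819 counts over the 12 libraries, from 682 to 2800 per library, or 0.00658% to 0.0293% of a library's counts (65.8 to 293 counts per 1000000, or CPM). Library totals ran from 9163368 to 19841387. Between 50 and 58 of the 69 genes had at least 1 count in a library. Over all libraries H4 took 38.9% of the histone counts, H2B 29.3%, H2A 11.95%, H3 10.1% and H1 9.63%. H4 was the class with the most counts in 7 libraries and H2B in 5, among them control replicates 2 and 3. Small counts were mostly even: of 289 values from 1 to 10 in these genes 82.35% were even, against 68.68% over all genes. The cause of that pattern was not tested, and floors here cover counting error only and take a count as 1 fragment. Markers of the cell type were present in the same libraries: all 10 B-cell markers were detected, at 2195 to 3066 CPM summed per library, all 5 erythroid markers had 0 counts, and 5 of 9 T and NK cell markers, including CD3G and CD8A, had 0 counts. Of myeloid markers 2 of 7, and of epithelial and stromal markers 4 of 8, had 0 counts throughout. Others of these lists were detected in every library: the lymphocyte gene NKG7 at 2.98 to 7.02 CPM, the myeloid gene S100A9 at 7.34 to 13.5 CPM and the keratin KRT8 at 107 to 158 CPM.

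Detection differed by class. Of the 69 genes, 42 passed the count filter and were tested, namely 4 of H1, 9 of H2A, 14 of H2B, 8 of H3 and 7 of H4. A further 19 had counts but did not pass the filter. Those with the most counts among them were H3C10 with 124 counts over all libraries, H2AC4 with 101, H2BC3 with 83 and, for H4, H4C4 with 70. For H1 the leading one was H1-1 with only 2 counts, and H1-6, the testis form of H1, also had 2 counts.

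Another 8 genes had 0 counts in all 12 libraries: H2AC1, H2AC7, H2AC19, H2AC25, H2BC1, H2BC26, H3C15 and H4C7. H2AC1 and H2BC1 are the testis forms of H2A and H2B. A 0 here is not read as absence of expression, since 3 counts, the limit that a count of 0 allows, stand for 0.151 to 0.327 CPM. If a fragment gave 2 counts, the limit would be 6 counts, or 0.302 to 0.655 CPM. It is also not free of the counting: the exons of H2AC19 and H3C15 are covered in full by the exon model of H4C15, and 85.3% of the exon bases of H2AC7 by that of H3C4. In GENCODE transcripts H3C15 shares 100% of its stretches of 150 bases with H3C13 and H3C14, and H2AC7 shares 97.1% with AL031777.3. H2AC25 and H2BC26 each have a copy row on a patch contig.

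Sequence shared between transcripts can limit which gene a read is given to. Of the 65 genes matched to GENCODE transcripts, 49 share no 150-base stretch with another gene and 16 share at least 1. Of those 16, 11 share over 50% of their stretches. Among the tested genes the pairs are H2AC13 with H2AC14 (51.7% and 76.9% of their stretches) and H2AC17 with H3C12 (80.7% and 31.5%), H4C15 shares 97.0% with H4C14, H3C4 shares 100% with the GENCODE gene AL031777.3, and H2BC18 shares 10.3% with 3 other genes. The search did not set apart repeated sequence from GENCODE models that overlap at the same locus. H2AC17 is an H2A gene and H3C12 an H3 gene, and in the count table neither shares exon bases with another gene. How reads with several alignments were counted is not given in the sources used here. How far the values of these 7 genes are affected is therefore not known. In the count table other rows also cover 42.5% of the exon bases of H2BC18, 46.4% of H3C4 and 13.6% of H4C15. The rows over H2BC18 are FCGR1A and LOC124904411. H4C3, H2BC9, H1-2 and H2BC12 share no 150-base stretch with another gene. At 50 bases H2BC12 shares 74.1% of its stretches with other genes, and H4C3, H2BC9 and H1-2 share none. H2BC12 gave 232 stretches of 150 bases, while its exon model in the count table spans 1275 bases, so that model was checked only in part. The tested genes H3C2 and H3C3 were not matched to a GENCODE gene by symbol, so they were not checked.

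Per exon length, H4C3 had the highest mean level, and the highest level in 11 of 12 libraries. H4C3 (chr6:26103933-26104337, plus strand), which encodes H4, had a mean of 95.1 on the scale of CPM per 1000 bases of exon, with a range of 13.2 to 256 over the 12 libraries. It was followed by H2BC9 at 12.5, H1-2 at 9.51, H2BC12 at 7.93, H3C12 at 6.74, H4C1 at 6.31 and H4C5 at 5.70 on the same scale. In control replicate 3 H1-2 stood above it, at 14.1 against 13.2, and the range of H4C3 overlaps those of H2BC9 and H1-2. The ranges of the second to the seventh overlap each other, from 8.40 to 23.1 for H2BC9, 4.91 to 14.1 for H1-2 and 6.26 to 10.4 for H2BC12. The order among them is therefore not fixed beyond their spread. H4C3 alone gave 28.2% of all histone counts, but between 7.28% and 38.5% in single libraries.

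H4C3 varied more between libraries of 1 group than between groups. It measured 47.8, 17.4 and 5.35 CPM in control replicates 1 to 3, and 25.7, 10.4 and 104 CPM in low. In medium it measured 61.7, 21.3 and 29.7 CPM, and in high 68.5, 5.59 and 65.1 CPM. The highest library was 8.94 times the lowest within control, 9.94 times within low, 2.90 times within medium and 12.2 times within high. The group means of low, medium and high were 1.98, 1.60 and 1.97 times the control mean, and every treated group overlapped control.

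The 8 genes with long exon models had a lower median spread than the others, with wide overlap. A model was called long where it spanned over 900 bases of exon or more than 1 exon block, which holds for H2BC4, H2BC5, H2BC12, H2BC18, H2BC21, H3C4, H3C6 and H4C15. All 8 were tested, against 34 of the 61 others. Their CPM over the 12 libraries had a median coefficient of variation of 43.2%, against 67.6% among the short models that were tested. The single values ran from 15.998% to 80.4% for long models and from 28.2% to 101% for short ones, and the difference was not tested. The steadiest was H2BC12 (chr6:27138293-27146858), with 10.1, 10.98 and 13.3 CPM in control, 9.40, 11.4 and 9.26 in low, 9.93, 10.5 and 8.06 in medium and 8.40, 11.9 and 7.99 in high. All 4 groups overlapped for this gene, and its highest library was 1.66 times its lowest.

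The design asks first whether any concentration changed these genes. The summed level of all 69 genes was 127, 89.7 and 73.5 CPM in control replicates 1 to 3, 108, 72.6 and 293 in low, 160, 110 and 91.6 in medium and 190, 65.8 and 202 in high. The means were 96.6 ± 27.2, 158 ± 119, 121 ± 35.6 and 152 ± 75.2 CPM (SD, n = 3), or 1.64, 1.25 and 1.58 times control in low, medium and high. Low and medium each had libraries below the control mean, and the lowest of all libraries was high replicate 2. Without low replicate 3 the low mean was 0.934 times control. In whole-culture RNA, a change in the number of cells in S phase and a change in histone RNA per cell cannot be told apart.

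**Figure D1:**
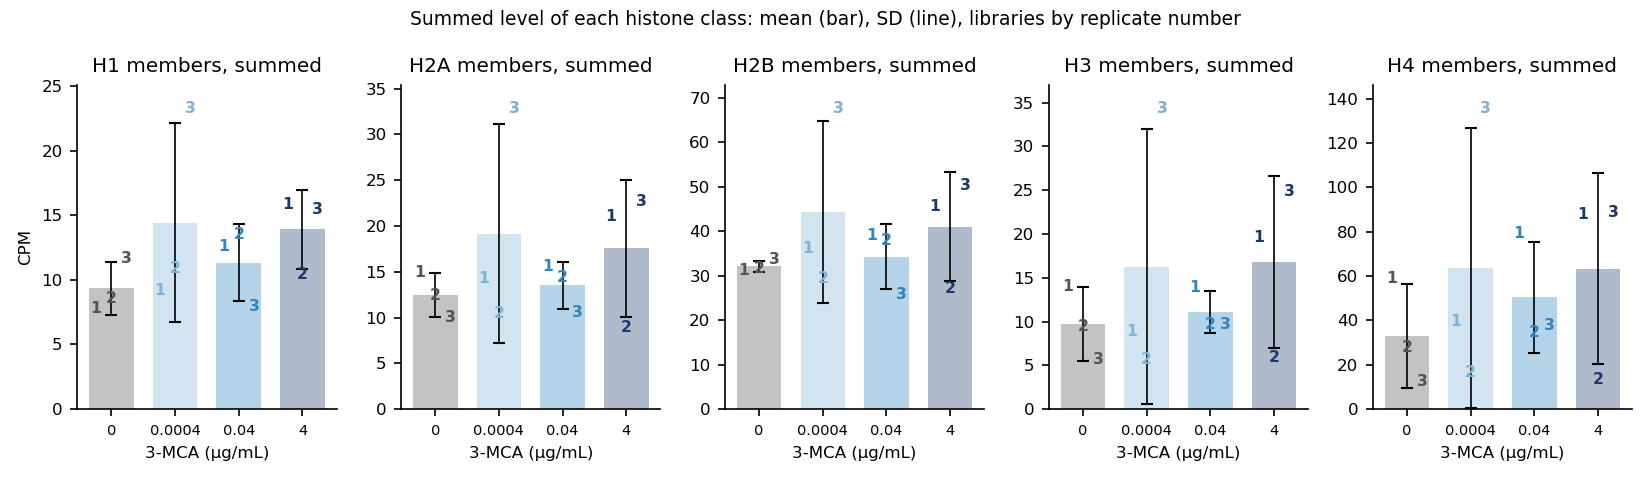
Summed CPM of each histone class (panels) by concentration of 3-methylcholanthrene, with group means as bars, SD as lines and libraries as their replicate numbers. Low replicate 3 is the top library in every class, and high replicate 2 lies below the control mean for H2A, H2B, H3 and H4.

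No histone gene passed the test at any concentration. By edgeR's quasi-likelihood test 0 of 42 genes were called at each of the 3 concentrations (0% of the 12030 genes tested in each), and 0 in a test of any difference among the 4 groups (0%). The smallest adjusted p of a histone gene was 0.911, 0.998 and 0.810 in low, medium and high. At an unadjusted p under 0.05 stood 6 histone genes in low (2.82% of all genes), 2 in medium (1.99%) and 1 in high (3.12%). DESeq2 and limma voom also called 0 histone genes at each concentration. The median SE of a histone gene's log2 difference was 0.76, 0.78 and 0.75 in low, medium and high, against 0.20 over all genes. The SE did not follow counts alone: in low it was 0.996 for H4C3, at 73 to 1011 counts per library, and 0.34 for H4C15, at 14 to 75.

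In direction, most fitted differences were positive. They lay above control for 37 of 42 genes in low (51.3% of all genes), 34 in medium (49.7%) and 38 in high (50.6%), with medians of 0.74, 0.41 and 0.75 on the log2 scale, against 0.01 or less over all genes. Over the 61 genes with any count, 50, 47 and 51 lay above, with medians of 0.78, 0.46 and 0.75. The 3 comparisons share their control libraries, and genes that pass a filter through a few high libraries tend to differ, so these counts describe the libraries and are no test. Without low replicate 3 the count in low was 19 of 42 and the median -0.02. With the summed level of RNAs without a poly(A) tail as a covariate, 28, 21 and 25 of 42 lay above control, and the medians were 0.17, -0.0015 and 0.088.

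**Figure D2:**
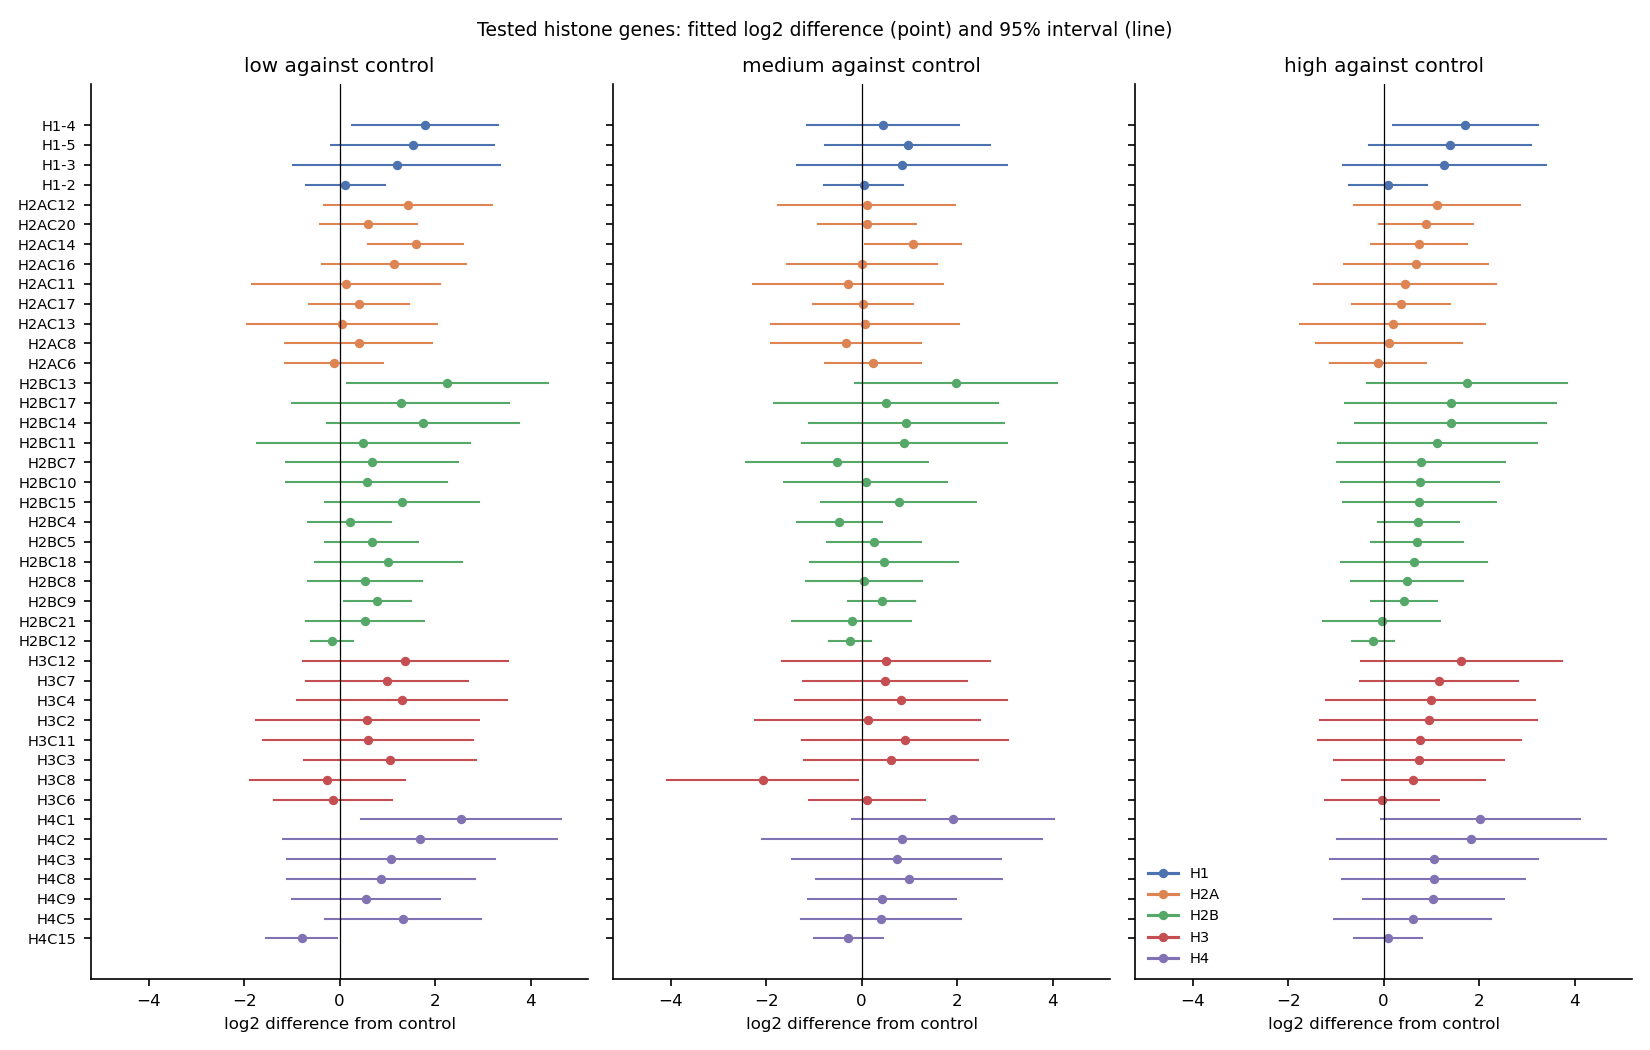
Fitted log2 differences from control (points) with 95% intervals (lines) of the 42 tested genes in low, medium and high. Genes are coloured and grouped by class, and ordered within each class by the value in high. Most points lie right of 0 and most intervals cross it.

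The linker histone genes gave H1-2 as the most abundant member and 3 others with wide spread. H1-2 (chr6:26055740-26056470), a main somatic H1, measured 3.59, 6.33 and 10.3 CPM in control, 4.55, 7.98 and 9.04 in low, 5.89, 9.09 and 5.63 in medium and 6.78, 7.61 and 6.597 in high. Its treated libraries all lay inside the control range, and the log2 difference in high was 0.09 ± 0.37 (SE; edgeR adjusted p = 0.945). H1-4, another somatic H1, measured 1.06, 1.06 and 0.366 CPM in control, 0.808, 1.92 and 5.38 in low, 1.42, 1.06 and 0.777 in medium and 3.39, 1.21 and 3.12 in high. The high libraries all lay above the controls, which held only 5 to 10 counts, while low and medium overlapped them. The log2 difference of H1-4 was 1.79 ± 0.70 in low and 1.71 ± 0.69 in high (SE; edgeR adjusted p = 0.911 and 0.810), and the low value was 0.77 without low replicate 3. H1-5 ran from 0.659 to 2.32 CPM in control and 1.36 to 4.20 CPM in high, and H1-3 from 0.293 to 0.845 and 0.202 to 1.74 CPM. Summed over the class, H1 stood at 9.34 ± 2.04 CPM in control and 14.4 ± 7.68, 11.3 ± 2.96 and 13.9 ± 3.05 CPM in the low, medium and high groups (SD, n = 3).

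Among H2A genes, H2AC14 was the one whose 3 libraries lay above all controls at every concentration. It measured 0.845, 0.633 and 0.879 CPM in control, 1.62, 1.70 and 3.66 in low, 2.18, 1.67 and 1.07 in medium and 1.69, 1.109 and 1.04 in high. Those are 6 to 12 counts in control and 11 to 34 in treated libraries, and the gene shares most of its sequence with H2AC13, whose libraries overlapped control in every group. The log2 difference of H2AC14 was 1.59 ± 0.46 in low and 1.07 ± 0.46 in medium (SE; edgeR adjusted p = 0.911 and 0.998). H2AC20, which faces H2BC21 across a shared promoter, ran from 0.422 to 1.69 CPM in control and 1.61 to 2.85 in high, a log2 difference of 0.90 ± 0.45 (SE; edgeR adjusted p = 0.810). H2AC12 ran from 0.633 to 0.806 CPM in control and from 0.907 to 1.91 in high, without overlap, but low replicate 1 measured 0.202 CPM.

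The other tested H2A genes overlapped control at every concentration. H2AC17, the most abundant H2A gene, stood at 2.11, 2.11 and 2.12 CPM in control and at 3.73, 1.41 and 2.78 in high. H2AC8 ran from 1.25 to 2.53 CPM in control and 0.605 to 3.52 in high, H2AC6 from 0.952 to 1.79 and 0.756 to 1.39, H2AC16 from 0.586 to 1.267 and 1.01 to 1.90, H2AC11 from 0.739 to 2.01 and 0.353 to 3.47, and H2AC13 from 0.806 to 2.32 and 0.706 to 2.78. The class sum was 12.5 ± 2.42 CPM in control and 19.2 ± 11.98, 13.5 ± 2.61 and 17.6 ± 7.51 CPM in the low, medium and high groups (SD, n = 3).

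H2B was the class with the tightest controls, at 31.1, 31.6 and 33.6 CPM summed. The treated sums were 44.3 ± 20.4, 34.3 ± 7.33 and 41.0 ± 12.2 CPM in low, medium and high, against 32.1 ± 1.29 in control (SD, n = 3). H2BC9, second in level per length, measured 4.86, 4.33 and 3.96 CPM in control, 6.87, 4.47 and 10.7 in low, 5.24, 5.76 and 6.118 in medium and 6.71, 3.88 and 6.42 in high. The medium libraries all lay above the controls, and low and high overlapped them. The log2 difference of H2BC9 in low was 0.79 ± 0.32 (SE; edgeR adjusted p = 0.911), and 0.40 without low replicate 3. H2BC13 went from 0, 0.147 and 0.633 CPM over the controls to 0.638 to 2.15 in low, on 6 to 20 counts, a log2 difference of 2.25 ± 0.96 (SE; edgeR adjusted p = 0.911).

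H2BC12, the steady member, lay lower in each treated group by the fit, at -0.22 ± 0.20 in high (log2, SE; edgeR adjusted p = 0.810). H2BC4, with a long model, was at 2.01 to 2.86 CPM in control, at 1.42 to 1.97 in medium, below all controls, and at 2.22 to 5.15 in high. H2BC14 lay above all controls in low, at 0.851 to 4.84 CPM against 0.586 to 0.845. In high the remaining H2B genes overlapped control: H2BC5 ran from 2.42 to 5.56 CPM, H2BC18 from 1.31 to 4.54, H2BC21 from 1.16 to 3.30, H2BC8 from 0.706 to 2.69, H2BC10 from 0.806 to 3.91, H2BC15 from 0.706 to 2.78, H2BC7 from 0.504 to 2.30, H2BC17 from 0.151 to 2.43 and H2BC11 from 0.151 to 1.49. High replicate 2 gave the lowest of the 3 high values in each of these 9 genes.

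H3 genes were low throughout apart from H3C12. H3C12 (chr6:27890315-27890826, minus strand) measured 3.69, 1.16 and 0.513 CPM in control, 1.21, 1.06 and 10.8 in low, 3.71, 1.29 and 2.33 in medium and 5.90, 1.56 and 8.25 in high. Every treated group overlapped control, and the log2 difference was 1.38 ± 0.98 in low and 1.63 ± 0.96 in high (SE; edgeR adjusted p = 0.911 and 0.810). H3C8 was the member that lay lower in medium, at 0.218, 0.152 and 0.0971 CPM against 1.06, 0.633 and 0.440 in control. That is 1 or 2 counts per medium library, under the floor of 3, and the log2 difference of -2.07 had a 95% interval from -4.07 to -0.07 (edgeR adjusted p = 0.998). H3C2 ran from 0.147 to 1.90 CPM in control and 0.403 to 3.30 in high, H3C3 from 0.440 to 1.48 and 0.605 to 2.43, H3C4 from 0.422 to 1.10 and 0.605 to 2.43, H3C7 from 0.586 to 0.845 and 0.302 to 2.78, H3C6 from 0.806 to 1.69 and 0.745 to 1.65, and H3C11 from 0 to 1.06 and 0.353 to 1.76. The class sum was 9.69 ± 4.21 CPM in control and 16.3 ± 15.7, 11.1 ± 2.42 and 16.8 ± 9.81 CPM in the low, medium and high groups (SD, n = 3).

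H4 sums followed H4C3, at 33.0 ± 23.5 CPM in control and 63.8 ± 63.2, 50.4 ± 25.01 and 63.2 ± 43.1 CPM in the low, medium and high groups (SD, n = 3). Without H4C3 the class stood at 9.49 ± 1.96, 17.2 ± 13.3, 12.8 ± 4.91 and 16.8 ± 8.003 CPM in the same order. The log2 difference of H4C3 was 1.07 ± 0.996, 0.74 ± 0.998 and 1.05 ± 0.99 in order of rising concentration (SE; edgeR adjusted p = 0.911, 0.998 and 0.810). H4C1 measured 1.37, 0.422 and 0.366 CPM in control, 2.63, 1.06 and 8.29 in low, 3.27, 2.35 and 2.23 in medium and 4.00, 0.302 and 4.17 in high. Only the medium libraries cleared all controls, and in high 2 libraries lay far above and 1 below them. The log2 difference of H4C1 was 2.55 ± 0.95 in low and 2.03 ± 0.95 in high (SE; edgeR adjusted p = 0.911 and 0.810).

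H4C15, whose exon model spans 11983 bases, lay the other way in low, at 2.12, 2.02 and 1.72 CPM against 3.69, 3.801 and 3.004 in control. All 3 low libraries lay below all controls, and the log2 difference was -0.79 ± 0.34 (SE; edgeR adjusted p = 0.911). H4C15 then measured 3.59, 3.78 and 3.30 CPM in high, within the range of control. H4C8 lay above all controls in medium, at 1.36 to 2.07 CPM against 0.633 to 1.06. H4C2 ran from 0.440 to 1.267 CPM in control and 0.605 to 4.69 in high, H4C5 from 0.845 to 2.22 and 0.605 to 3.99, and H4C9 from 0.366 to 0.633 and 0.302 to 1.56.

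Counted over the 42 tested genes, few groups cleared the controls. All 3 libraries lay above all controls for 3 genes in low (2.34% of all genes), 4 in medium (3.26%) and 3 in high (1.85%). They lay below all controls for 1 gene in low (4.99%), 2 in medium (8.3%) and 0 in high (8.28%).

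The summed histone level of a library tended to move with its level of RN7SK. RN7SK, the 7SK RNA that holds back transcription elongation and is made without a poly(A) tail, measured 19.5, 14.8 and 7.18 CPM in control, 26.5, 5.11 and 89.97 in low, 47.5, 14.9 and 17.4 in medium and 60.4, 4.89 and 63.9 in high. H4C3 ranked the libraries in the same order as RN7SK within control, low and medium, and within high only the top 2 changed places. The mitochondrial 16S ribosomal RNA took 3.84%, 2.18% and 1.43% of counts in control, 3.39%, 1.46% and 7.99% in low, 4.80%, 2.73% and 3.13% in medium and 5.52%, 1.45% and 7.96% in high. Low replicate 3 was the highest library, and high replicate 2 and low replicate 2 were among the 3 lowest, in both RNAs.

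**Figure D3:**
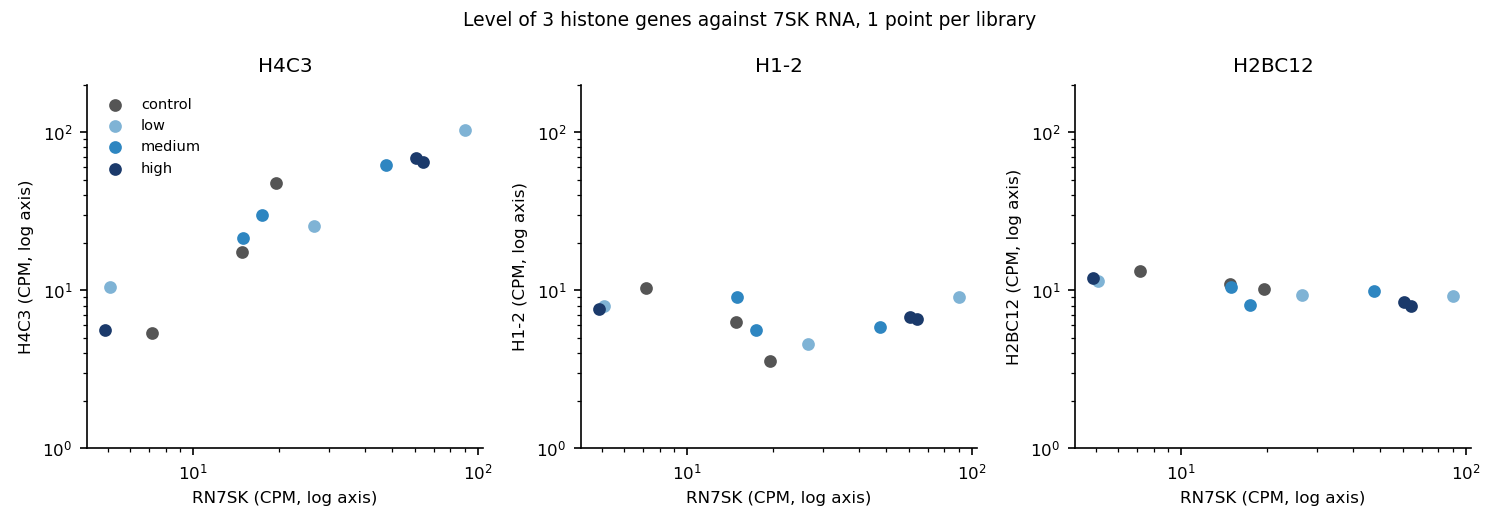
CPM of H4C3, H1-2 and H2BC12 against CPM of RN7SK in each of the 12 libraries, on logarithmic axes, coloured by group. H4C3 runs from 5.35 to 104 CPM across the range of RN7SK, while H1-2 and H2BC12 stay within 3.59 to 10.3 and 7.99 to 13.3 CPM.

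This relation was fitted as the slope of each gene on log2 RN7SK with the 4 groups as terms, a fit chosen after seeing the data. A slope of 1 means that a gene doubles when RN7SK doubles. Of the 42 histone genes 25 were called with a positive slope (22.6% of all genes) and 0 with a negative one (22.3%), by edgeR's quasi-likelihood test at an adjusted p below 0.05. Their median slope was 0.40, against 0.00 over all genes, and 39 of 42 were positive. By class 3 of 4 H1 genes, 4 of 9 H2A, 7 of 14 H2B, 6 of 8 H3 and 5 of 7 H4 genes were called. Without low replicate 3 and high replicate 2, the farthest from the median of RN7SK, 2 histone genes were called with a positive slope, against 3.87% of all genes in the same fit. There 33 of 42 slopes were positive with a median of 0.15, and the median SE of a slope was 0.27 in place of 0.14. H4C3 kept a slope of 0.93 (edgeR adjusted p = 0.0252). What sets this relation was not tested.

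Within each class the slopes spread widely. H4C3 had a slope of 0.95 ± 0.09 (SE; edgeR adjusted p = 8.31e-06), and the highest of the other classes were H3C2 at 0.91 ± 0.15, H2BC17 at 0.86 ± 0.17, H1-3 at 0.74 ± 0.18 and H2AC13 at 0.65 ± 0.17. All 5 passed the test. At the other end H2BC12 had -0.11 ± 0.04 (edgeR adjusted p = 0.0582), H1-2 -0.07 ± 0.09, H4C15 -0.00 ± 0.09, H3C6 0.02 ± 0.16 and H2AC20 0.05 ± 0.12, and none of these passed. The 8 genes with long models had a median slope of 0.26 with 3 called, and the 34 tested genes with short models had a median of 0.54 with 22 called. The long models held a median of 402.5 counts over all libraries and the 61 short ones 115, and the difference between model types was not tested.

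**Figure D4:**
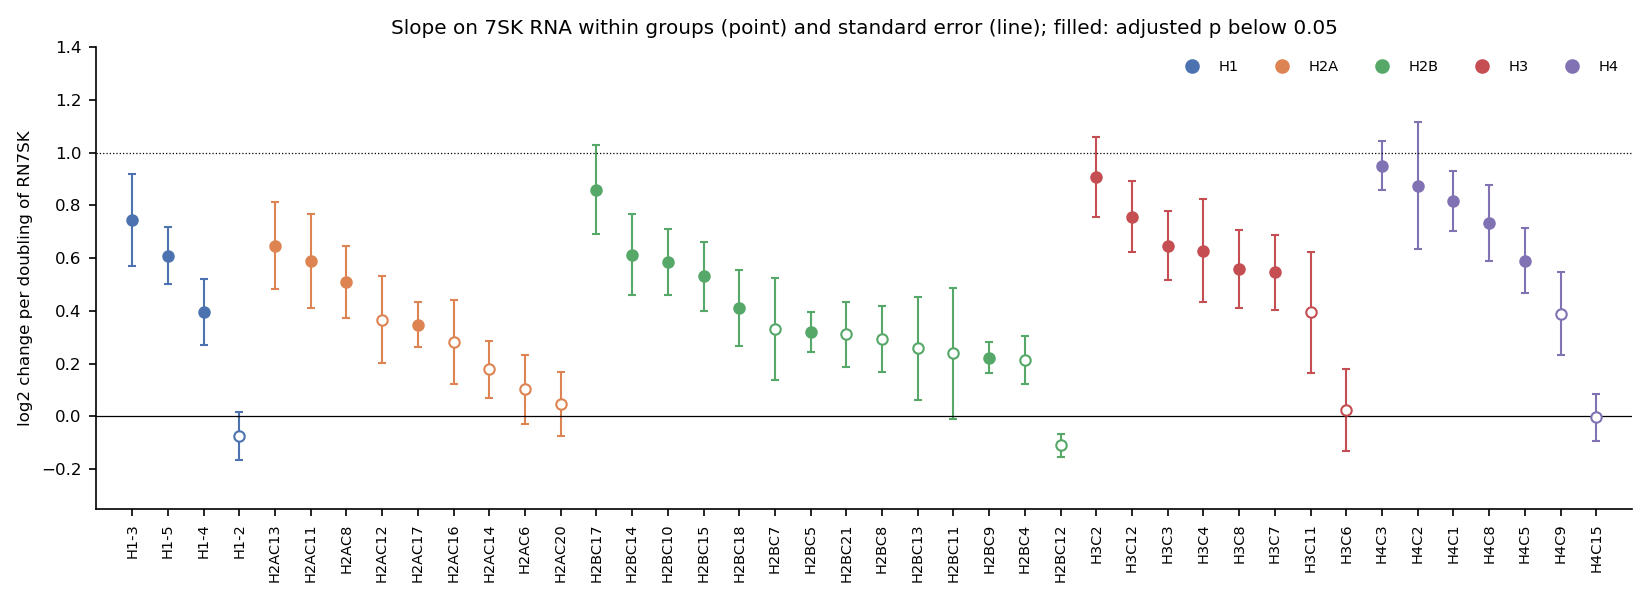
Slope of each of the 42 tested genes on log2 RN7SK within groups (points) with its SE (lines), by class. Filled points passed at an adjusted p below 0.05, and the dotted line marks a slope of 1; H1-2, H2BC12, H3C6 and H4C15 lie near 0 beside class members well above it.

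Genes that act on histone messengers were not called at any concentration. Of 28 genes of histone mRNA processing, all tested, edgeR called 0 in each group (0% of all genes) and 0 had an unadjusted p under 0.05, with median log2 differences of -0.07, -0.05 and -0.05 in low, medium and high. SLBP measured 218 ± 13.6 CPM in control and 219 ± 21.5, 218 ± 7.56 and 226 ± 35.7 CPM in the low, medium and high groups (SD, n = 3), and differed by 0.11 ± 0.12 in high (log2, SE; edgeR adjusted p = 0.811). Of the U7 particle, LSM10 measured 44.2 ± 3.97 CPM in control and 39.8 ± 1.82 in high, and LSM11 24.4 ± 1.06 and 19.7 ± 2.90 CPM. ZNF473, a zinc finger protein of the same machinery, stood at 24.2 ± 3.00 and 22.6 ± 2.29 CPM, and ERI1, an exonuclease that trims histone ends, at 4.09 ± 0.817 and 3.96 ± 1.17 CPM. CASP8AP2 (FLASH) was under 1 CPM on average in control and high, at 0.921 ± 1.04 and 0.405 ± 0.220. SYMPK, a scaffold of the cutting complex, was at 142 ± 3.25 and 120 ± 17.2 CPM and UPF1, a helicase needed for histone mRNA decay, at 147 ± 8.45 and 122 ± 24.8 CPM.

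Transcription factors, chaperones and S-phase genes were not called either, and neither DESeq2 nor voom called a gene of these lists or of histone mRNA processing. Of 12 genes of histone gene transcription 0 had an unadjusted p under 0.05 in edgeR, and the median was 0.05 in high. NPAT stood at 50.8 ± 5.47 CPM in control and 53.2 ± 8.31 in high, and HINFP, which binds H4 promoters, at 12.5 ± 0.431 and 13.9 ± 1.48 CPM. Of this list CRAMP1 was at 43.9 ± 0.758 and 36.3 ± 3.68 CPM and MTBP at 16.1 ± 1.68 and 11.2 ± 3.23 CPM. Of 18 histone chaperone and supply genes 17 were tested and 0 called, with 1, 1 and 2 at an unadjusted p under 0.05 in low, medium and high (edgeR; median 0.02 in high). ASF1A, an H3 and H4 chaperone, was at 75.6 ± 4.34 and 88.9 ± 25.4 CPM, CDAN1 at 26.4 ± 1.41 and 21.5 ± 1.58 CPM, and the importin IPO4 at 60.1 ± 21.1 and 20.7 ± 16.2 CPM. Of 20 S-phase genes 0 were called and 1, in medium, had an unadjusted p under 0.05 (edgeR; median -0.05 in high), and the helicase subunits MCM3, MCM5 and MCM6 stood at 435.7 ± 28.1, 293 ± 20.4 and 229 ± 21.2 CPM in high against 495 ± 16.4, 337 ± 15.1 and 273 ± 10.3 in control (SD, n = 3).

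For the most part the messengers of replacement histones are polyadenylated and not confined to S phase. The 11 listed drew more counts, at 1647 to 1755 CPM summed per control library, against 73.5 to 127 CPM for the 69 replication-dependent genes. These are shares of counts and not levels per length. Of 11 listed 9 were tested and 0 called by edgeR, DESeq2 or voom, 1 had an unadjusted edgeR p under 0.05, in low, and the median was -0.06 in high. H3-3B alone stood at 493 ± 3.64 CPM in control and 498 ± 23.8 in high, and H2AZ1 at 703 ± 29.1 and 579 ± 57.2 CPM (SD, n = 3). CENPA, the centromeric H3, was at 33.0 ± 3.403 and 36.3 ± 2.93 CPM and H2AX at 7.77 ± 1.48 and 6.03 ± 1.67 CPM. On RN7SK none of the 9 tested replacement histones was called with a positive slope and 4 were called with a negative one, against 22.6% and 22.3% of all genes. The RNAs without a poly(A) tail that could be tested were RN7SK, RN7SL1 and RMRP, and none passed in high: RN7SL1, the 7SL RNA, was at 3.55 ± 2.28 and 15.1 ± 12.02 CPM, RMRP at 3.45 ± 2.44 and 13.4 ± 11.96 CPM and RN7SK at 13.8 ± 6.23 and 43.1 ± 33.1 CPM (SD, n = 3; edgeR adjusted p = 0.810 each). On RN7SK 4 of 28 genes of histone mRNA processing were called with a positive slope and 13 with a negative one, of 12 of histone gene transcription 4 and 2, and of 20 S-phase genes 4 and 9. SLBP had a slope of 0.08 ± 0.02 on RN7SK (SE; edgeR adjusted p = 0.00241) and NPAT 0.15 ± 0.02 (adjusted p = 2.43e-04), where H4C3 had 0.95. Others of these lists lay farther from 0: POU2F1 at 0.36 ± 0.03, CDT1 at 0.34 ± 0.04, and NCBP2 and CDK2 at -0.27 ± 0.03 each (SE).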

How the data were processed

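RNA-seq of 12 TK6 libraries was analysed, 3 per concentration. The authors deposited raw read counts per gene for 50006 rows, which carry RefSeq symbols, coordinates and exon lengths, and CPM for each library, which equalled the count quotient within 5e-05. Per the submitters' processing notes the tools were featureCounts 2.0.6, HISAT2 2.2.1, fastp 0.23.4 and MultiQC 1.27, with the build GRCh38.p14. Strand use and multiple alignments are settings not given in the sources used here.

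Genes were tested with edgeR 4.0.16 (R 4.3.3; filterByExpr, TMM, quasi-likelihood F test) on the counts of 12030 genes, all 12 libraries in 1 fit, with Benjamini-Hochberg adjustment over all genes and calls below 0.05. DESeq2 1.42.0, limma 3.58.1 (voom), other scalings and filters, a replicate block, a covariate of RNAs without poly(A) and each library left out were alternatives. The slope on RN7SK and its alternatives were added after seeing the data. Fits were also run on simulated counts, drawn separately for each gene and library, and their outcome is not used as support here. Levels per length are CPM per 1000 exon bases.

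The 69 genes, the gene lists and the tests were chosen with earlier results of these data known. Every tested histone gene is named. Of those under the filter the leading gene per class is named, as are all at 0. Of each list other than the cell type markers, the fixed genes and up to 3 with the smallest p in high are named. Of the marker lists only examples are named, outside that rule. For H3-3B, H1-6 and the slopes of POU2F1, CDT1, NCBP2 and CDK2 the choice came after values were seen. Replicate numbers were not tied to cultures in the labels, and same-numbered libraries did not deviate together throughout, so no block was used.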

Additional observations from a re-analysis of the deposited data

How the results depend on the processing

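No histone gene was called at any concentration under any alternative run. Over all genes, edgeR called 3, 7 and 4 genes in low, medium and high with every counted gene kept, 1 in each with the covariate of RNAs without poly(A), 1 in each without the 2 libraries highest in those RNAs (low replicate 3 and high replicate 3, chosen after seeing the data), 2 in low and 6 in medium with only the 2 groups compared, and 0 to 2 in each with 1 library left out. DESeq2 called 4, 9 and 5 genes, and voom 1 in medium and 1 in high. With a replicate block, a fit the labels do not support since the numbers name no shared culture, 0 histone genes were called, 36, 31 and 38 lay above control, the medians were 0.66, 0.31 and 0.68, and the test of any group difference called 2 genes. Correlations of same-numbered libraries ran from -0.38 to 0.58 and 5 of 12 libraries were closest to their own number.

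With 1 library left out the direction of the histone genes turned in low but not in medium (28 to 38 above, median 0.18 to 0.48) or high (34 to 41 above, median 0.50 to 1.14). In low the count above control ran from 19 to 38 and the median from -0.0165 to 1.05, and without the 2 libraries highest in RNAs without poly(A) they were 20 and -0.0159. With the covariate, whose mean was higher in each treated group than in control, 21 lay above control in medium (median -0.0015) and 25 in high (median 0.0884). H4C3 turned to -0.13 in low and -0.34 in high with the covariate, and to -0.32 in low without the 2 libraries. With 1 library left out H4C3 in low ran from -0.33 to 2.12, H3C12 in low from -0.58 to 2.45 and H1-2 in high from -0.22 to 0.57. In low H1-4 ran from 0.77 to 2.23, H2BC9 from 0.40 to 1.06, H2BC13 from 1.51 to 3.71 and H4C1 from 1.41 to 3.36. H3C12 in low was also at -0.58 without the 2 libraries.

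The count of histone genes called with a positive slope on RN7SK was 2 without the 2 farthest libraries, 18 to 27 with 1 library left out, 18 with a replicate block and 28 with 16S ribosomal RNA in place of RN7SK. Slopes near 0 changed sign: H2AC20 to -0.23 with the block and from -0.0467 to 0.11 with 1 library left out, H3C6 to -0.16 without the 2 farthest libraries and from -0.12 to 0.0968, H4C15 to 0.13 and, with the block, 0.0884, and from -0.0355 to 0.0327. The causes were not tested. The genes under the filter held at most 124 counts over 12 libraries. Passing did not follow total counts alone, since H3C8 was tested with 88.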
